A study of Mus musculus with 2 samples.

Results

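The cells described here were the 134 cultured mouse bone marrow cells with the largest share of transcripts from Cdkn1a, Phlda3 and Ccng1, out of 8916 cells that passed the quality filters. The filters required 500 or more detected genes per cell and allowed no more than 10% of its unique molecular identifiers (UMIs, each counting 1 captured transcript) to come from mitochondrially encoded genes. Within each library, cells were ranked by the summed UMIs of the 3 genes over all UMIs of the cell, and the top 1.5% were selected. This gave 44 of 2912 control cells and 90 of 6004 Cxxc5 knockdown cells. The 2868 and 5914 other cells are called the remaining cells.

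All cells came from C57BL/6 bone marrow enriched for LSK cells, the lineage-negative, Sca-1-positive, Kit-positive fraction that is rich in blood stem and progenitor cells. They carried a retrovirus with a short hairpin RNA and GFP, in one group a control hairpin and in the other a hairpin against Cxxc5, which encodes a CXXC zinc finger protein. Both groups were sorted on GFP and grown in DMEM with 20% serum and 10 ng/ml each of GM-CSF and SCF, cytokines that drive myeloid growth, until day 3. Material of 5 samples was pooled into 1 library per group, without a replicate, and the age of the mice is not given in the sources used here. No comparison below therefore carries a p-value, and the 95% intervals cover counting error only.

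The p53 protein is a transcription factor that is stabilised by DNA damage and other stresses and is held in check by the ubiquitin ligase Mdm2. Its targets include Cdkn1a, which encodes the cyclin-dependent kinase inhibitor p21, genes of the mitochondrial death pathway such as Bax and Bbc3, and genes of repair and metabolism. Phlda3 encodes a membrane-binding protein that restrains AKT, and Ccng1 encodes cyclin G1. In blood progenitors p53 is known for limiting the expansion of damaged stem cells, and Cdkn1a can also be transcribed without p53.

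Because the selection rests on these 3 genes, their promoters are shown first. Each run is the RefSeq promoter on GRCm38.p6, from 250 bases before to 50 bases after the annotated start, read on the strand of the gene. Capitals mark matches to the p53 consensus: a 10-base half-site without mismatch, or a full element of 20 bases made of a pair of adjacent half-sites with intact cores and at most 3 other mismatches, searched on both strands. The Rps27l promoter is added because that gene, a target outside the ranking, is one of the abundant targets in these data.

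Cdkn1a, chr17:29090729-29091028, plus strand: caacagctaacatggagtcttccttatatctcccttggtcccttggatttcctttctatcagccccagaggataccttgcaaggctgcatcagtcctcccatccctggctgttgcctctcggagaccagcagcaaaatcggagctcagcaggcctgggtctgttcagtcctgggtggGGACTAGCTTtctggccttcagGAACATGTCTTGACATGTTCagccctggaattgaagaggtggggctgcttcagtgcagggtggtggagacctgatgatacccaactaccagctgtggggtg
Phlda3, chr1:135765835-135766134, plus strand: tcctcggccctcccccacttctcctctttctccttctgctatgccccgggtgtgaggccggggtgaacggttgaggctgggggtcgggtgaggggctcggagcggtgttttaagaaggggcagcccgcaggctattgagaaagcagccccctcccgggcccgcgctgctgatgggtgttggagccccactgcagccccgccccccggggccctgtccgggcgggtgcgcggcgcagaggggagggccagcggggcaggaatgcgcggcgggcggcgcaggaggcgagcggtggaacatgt
Ccng1, chr11:40755237-40755536, minus strand: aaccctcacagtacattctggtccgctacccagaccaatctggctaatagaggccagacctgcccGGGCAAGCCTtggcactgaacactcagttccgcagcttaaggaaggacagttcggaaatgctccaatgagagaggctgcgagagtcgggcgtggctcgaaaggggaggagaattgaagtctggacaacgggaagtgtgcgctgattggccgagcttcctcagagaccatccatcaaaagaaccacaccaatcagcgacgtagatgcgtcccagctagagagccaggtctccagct
Rps27l, chr9:66946163-66946462, plus strand: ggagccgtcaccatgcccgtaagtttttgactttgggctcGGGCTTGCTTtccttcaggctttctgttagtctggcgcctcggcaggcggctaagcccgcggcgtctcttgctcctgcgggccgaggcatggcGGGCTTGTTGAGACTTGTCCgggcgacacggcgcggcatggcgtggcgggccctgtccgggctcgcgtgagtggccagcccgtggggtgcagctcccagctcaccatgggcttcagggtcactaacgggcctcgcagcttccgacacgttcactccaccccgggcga

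The Cdkn1a window held 2 half-sites, 1 of them within a full element with 1 mismatch that began 51 bases before the annotated start. Ccng1 held 1 half-site, Phlda3 held no match in this window, and Rps27l held 2 half-sites, 1 of them within a full element with 1 mismatch. Second annotated starts of Cdkn1a and Rps27l had windows without a match. Among all 32851 mouse promoter windows of the same length, 8.36% held an exact half-site and 0.572% a full element. Of 78 windows of 56 p53 targets outside the ranking, 15 (19.2%) held a half-site and 8 (10.3%) a full element. Some genes had several windows, and by gene the counts were 14 and 7 of 56. Targets without a window, such as Zmat3, were not counted. The same window can hold both a half-site and a full element, and a match is a description of the letters only.

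The libraries held 49333454 UMIs over 2925 barcodes in the control and 62910229 UMIs over 6015 barcodes in the knockdown, and 26 barcode sequences occurred in both, none of them in a selected cell. Cxxc5 lay at 9.36 counts per 1000000 UMIs (CPM) in remaining control cells (456 UMIs) and at 1.16 CPM in remaining knockdown cells (72 UMIs), a log2 ratio of -3.01 (-3.39 to -2.65). Among selected cells, 6 Cxxc5 UMIs were counted in the control and 1 in the knockdown.

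The ranking genes are given as a description, since they chose the cells. Cdkn1a (17:29090976-29100727, mm10) stood at 581 CPM in selected control cells and 539 CPM in selected knockdown cells, against 26.7 and 22.4 CPM in the remaining cells. Ccng1 (11:40748552-40755311) stood at 253 and 318 CPM against 48.7 and 57.2 CPM. Phlda3 (1:135766119-135769136) stood at 58.5 and 99.9 CPM against 1.40 and 2.01 CPM. Cdkn1a gave the most UMIs in 33 of 44 control and 53 of 90 knockdown cells, and all 3 genes were detected together in 20 and 34 of them. Only Cdkn1a was detected in 8 and 9 selected cells, and Cdkn1a was absent in 1 and 7.

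The threshold cut through a smooth slope, with no gap. The last control cell inside it had a summed level of 679 CPM (3 UMIs of 4417) and the first outside 677 CPM (3 of 4434). In the knockdown library the last inside had 669 CPM (7 of 10456) and the first outside 668 CPM (2 of 2996). The highest cells reached 1389 (control) and 2111 CPM (knockdown), while the median of the remaining cells was 52.1 and 54.2 CPM. At the lower end the choice rested on few molecules: 6 control and 23 knockdown cells entered with fewer than 5 UMIs of the 3 genes.

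**Figure D1:**
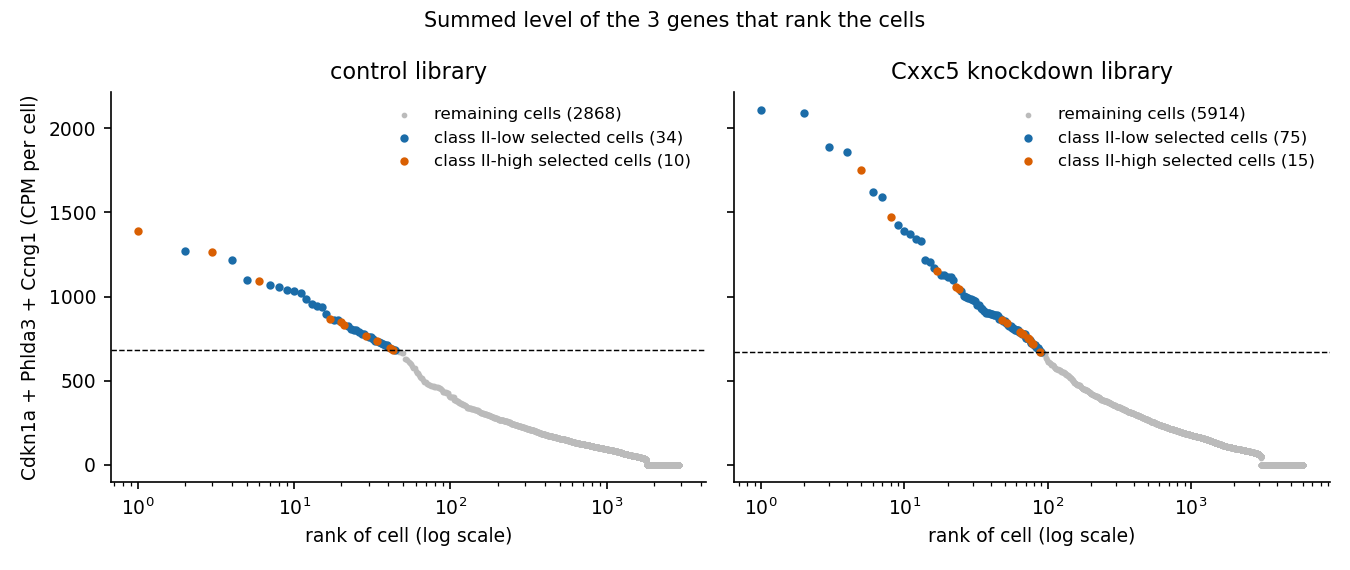
Summed CPM of Cdkn1a, Phlda3 and Ccng1 in every kept cell (vertical axis) against its rank within its library (horizontal, log scale), with the lowest selected cell as a dashed line. Selected cells are blue or orange by their class II genes, and no gap separates the selected cells (down to 679 and 669 CPM) from the grey remaining cells.

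Selected cells were shallower than the rest. They held a median of 12550.5 UMIs in the control (3670 to 26384) against 17284.5 in the remaining cells, and 7985.5 in the knockdown (2251 to 26553) against 10627. A share of UMIs is noisier in a shallow cell, and the part of depth in the selection was not tested beyond the settings given at the close. Mitochondrial shares had medians of 4.0% and 4.2% in selected cells and 3.92% and 3.98% in remaining cells.

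Each ranking gene was also measured in cells chosen by the other 2 alone, so that the measured gene did not enter the choice. Ranked without Phlda3, the top cells held Phlda3 at 42.2 (control) and 70.4 CPM (knockdown), against 1.58 and 2.38 CPM in the rest. The log2 ratios were 4.74 (4.01 to 5.42) and 4.89 (4.40 to 5.35). Ranked without Cdkn1a, Cdkn1a stood at 216 and 268 CPM against 31.2 and 26.0 CPM, with log2 ratios of 2.79 (2.50 to 3.07) and 3.36 (3.13 to 3.59). Ranked without Ccng1, Ccng1 stood at 171 and 191 CPM against 49.7 and 58.8 CPM, with log2 ratios of 1.78 (1.47 to 2.07) and 1.70 (1.45 to 1.94). With cells thinned to 5000 UMIs the ratios were 3.87 (2.30 to 5.17) and 4.52 (3.77 to 5.23) for Phlda3, 1.72 (1.04 to 2.32) and 2.26 (1.82 to 2.67) for Cdkn1a, and 1.45 (0.86 to 1.99) and 1.52 (1.14 to 1.88) for Ccng1. Each transcript was thus higher, as a sum, in cells chosen by the other 2, but not in each of those cells: Phlda3 had a UMI in 17 of 44 and 31 of 90 of them. Dropping Cdkn1a changed the choice most: 18 of 44 control and 49 of 90 knockdown cells were chosen with and without it, against 40 and 80 for Phlda3 and 35 and 64 for Ccng1.

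The shares of cells past a common level are given as a description of the 2 libraries. At or above the level of the lowest selected control cell lay 44 control cells, 1.51%, a share fixed by the selection. In the knockdown library 87 cells lay there, 1.45% (1.16% to 1.78%, exact Clopper-Pearson). Because the control share is fixed, these 2 shares cannot show whether the libraries differ. With every cell thinned to 5000 UMIs, 1.29% (0.903% to 1.78%) of control and 1.40% (1.10% to 1.75%) of knockdown cells held at least 4 UMIs of the 3 genes, after 115 and 641 shallower cells were left out.

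The selection takes a level of transcripts, not a cell type, and it held at least 2 kinds of cell. The 5 dendritic cell genes Ccl17 (a chemokine), Cd74, H2-Aa, H2-Eb1 and H2-Ab1 (antigen presentation by MHC class II) summed to 0 CPM in 29 of 44 control and 63 of 90 knockdown cells. In 10 control cells (22.7%) they summed to between 5448 and 69965 CPM, and in 15 knockdown cells (16.7%) to between 2590 and 30368 CPM. No selected cell lay between 500 and 2000 CPM, so a split at 1000 CPM, set after this gap was seen, divided them into class II-high and class II-low cells. Among remaining cells the class II-high share was 1.88% (1.42% to 2.45%) in the control and 0.829% (0.614% to 1.09%) in the knockdown. Unlike the selected cells, 10 and 15 remaining cells lay between 500 and 2000 CPM, so this share depends on where the split is set. Of the 64 class II-high cells in each library, 15.6% and 23.4% were selected.

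The class II-high cells were selected largely through Cdkn1a. Its level was 837 CPM over the 10 control cells and 777 CPM over the 15 knockdown cells, while Phlda3 stood at 7.61 CPM (1 UMI) and 32.7 CPM (4 UMIs) and Ccng1 at 91.3 and 98.1 CPM. In 5 control and 5 knockdown cells of this kind Cdkn1a was the only ranking gene detected. Class II-high cells that were not selected also held more Cdkn1a than other remaining cells, 170 and 171 CPM against 24.3 and 21.3 CPM. In the class II-low cells, 34 control and 75 knockdown, the summed levels were 504 and 493 CPM for Cdkn1a, 73.9 and 113 CPM for Phlda3, and 303 and 360 CPM for Ccng1. All 3 genes were detected together in 19 and 33 of these cells, and a single one in 4 and 10.

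**Figure D2:**
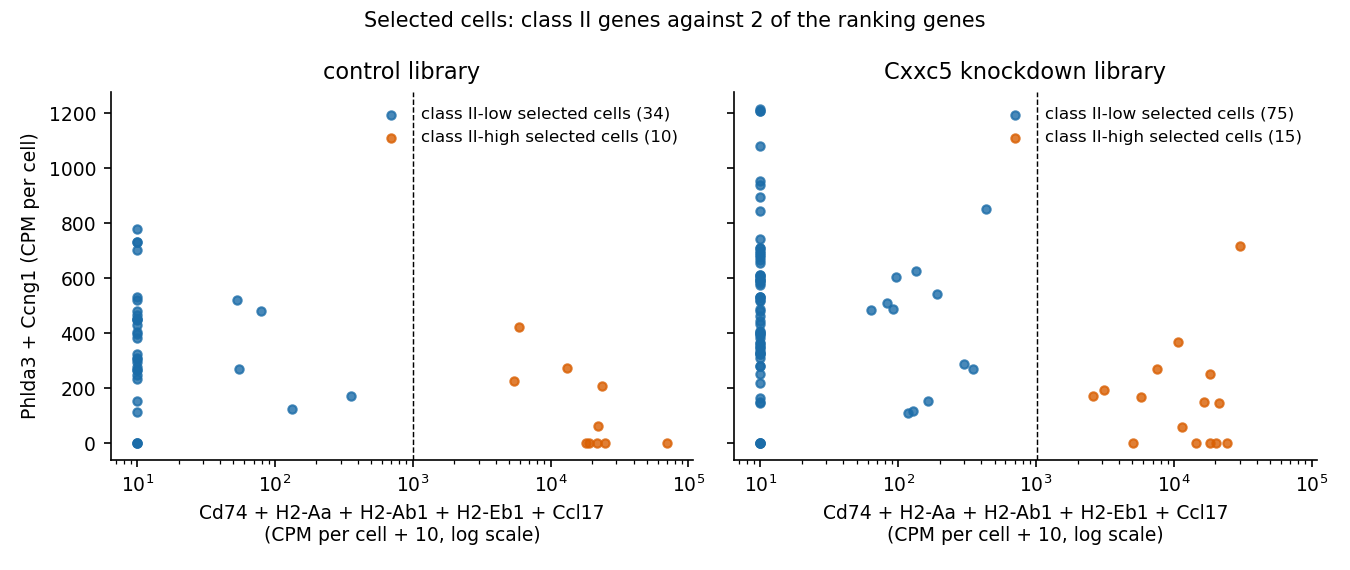
Each point is 1 selected cell, with the summed CPM of 5 dendritic cell genes plus 10 (horizontal, log scale) and the summed CPM of Phlda3 and Ccng1 (vertical). No selected cell lies near the dashed line at 1000 CPM, and the orange class II-high cells, 10 control and 15 knockdown, mostly lie low on the vertical axis.

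Counted against the remaining cells of their own library, 72 of 4553 genes with at least 20 CPM (1.58%) were at least 1.5-fold higher in the selected cells of both libraries, and 276 (6.06%) at least 1.5-fold lower. The median gene lay at a log2 ratio of -0.22 in the control and -0.19 in the knockdown. Set against that median gene, the counts were 172 (3.78%) higher and 82 (1.8%) lower, so which direction held more genes depended on the scaling. With class II-high cells left out of both sides, 40 genes (0.879%) were higher and 143 (3.14%) lower, or 85 (1.87%) and 60 (1.32%) against the median gene.

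Over all selected cells, the highest genes were led by the class II-high cells. Cd74, the invariant chain of MHC class II, stood at 2903 CPM in selected control and 869 CPM in selected knockdown cells, against 67.5 and 22.9 CPM in remaining cells. In class II-low cells it stood at 13.9 and 11.0 CPM, 6 and 7 UMIs from 1 and 4 cells. Against class II-low remaining cells the log2 ratios were 2.18 and 3.06, and Cd74 is itself among the genes that set the split. A Cd74 UMI was found in 2.94% of class II-low selected control cells against 2.88% of the remaining ones. In the knockdown the shares were 5.33% and 0.784%. Cst3, the protease inhibitor cystatin C and abundant in dendritic cells, had log2 ratios of 2.27 (2.21 to 2.33) and 1.86 (1.78 to 1.93) over all selected cells, and 0.49 (0.36 to 0.63) and 0.86 (0.74 to 0.97) in class II-low cells. The galectin Lgals3 had 2.23 and 2.51 over all and 0.67 and 1.22 in class II-low cells, and the transcriptional regulator Id2 had 1.45 and 1.62 over all and 0.16 and 0.15 in class II-low cells. Among genes of low level, Ccl22, a chemokine of mature dendritic cells, had 299 UMIs from 2 control cells and 23 from 2 knockdown cells, and Fscn1, the actin bundler of mature dendritic cells, had 56 UMIs from 2 and 11 from 3 cells. Ccr7, the receptor that guides dendritic cells to lymph nodes, had 37 UMIs from 2 control cells and 9 from 1 knockdown cell. Nearly all of these molecules thus came from very few cells, and class II-low cells held no Ccl22 or Ccr7 UMI.

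The p53 targets outside the ranking bear on what else these cells share. Of 68 measured genes on 3 lists (arrest and feedback, death and receptors, repair and metabolism), 14 had at least 20 CPM over all kept cells, 23 had 5 to 20 CPM and 31 had less, a division that does not use the selection. Of the 14 abundant targets, 4 (Ptp4a3, Mdm2, Bax and Ei24) were at least 1.5-fold higher in both libraries and 1 (Xpc) at least 1.5-fold lower, where all genes gave 1.58% and 6.06%. Their median log2 ratios were 0.19 and 0.38, against -0.22 and -0.19 for all genes. In class II-low cells 5 were higher, Aen being added, and Xpc lower, with medians of 0.27 and 0.47 against -0.12 and -0.16. Of the 23 targets at 5 to 20 CPM, 10 were at least 1.5-fold higher over all selected cells, where 6.74% of the 3485 genes of that level were, and 7 in class II-low cells, where 4.39% were. None of these 23 was at least 1.5-fold lower in both libraries, where 7.95% of genes of that level were over all selected cells and 7% in class II-low cells.

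Arrest and feedback targets stood out by their summed level. The 16 genes summed to 404 CPM in class II-low selected control cells and 473 CPM in the knockdown, against 170 and 166 CPM in remaining class II-low cells, log2 ratios of 1.25 (1.03 to 1.47) and 1.51 (1.34 to 1.67). Ptp4a3, a protein tyrosine phosphatase, stood at 155 and 193 CPM against 53.5 and 53.9 CPM, with log2 ratios of 1.53 (1.16 to 1.88) and 1.84 (1.57 to 2.1). Mdm2 stood at 55.4 and 64.2 CPM against 30.0 and 29.0 CPM, with 0.89 (0.24 to 1.47) and 1.15 (0.66 to 1.59). Psrc1, a spindle-associated protein, had 12 and 50 UMIs and log2 ratios of 1.5 (0.54 to 2.32) and 2.92 (2.48 to 3.34), and Gtse1, which shuttles p53 out of the nucleus in G2, had 0.95 (-0.06 to 1.80) and 1.54 (0.90 to 2.11). Both Psrc1 and Gtse1 are also cell cycle genes, and the part of the cell cycle in their levels was not tested. Trp53inp1, a stress-induced partner of p53, had 3 and 14 UMIs, at 6.93 and 21.9 CPM against 1.0 and 1.39 CPM. Btg2, an antiproliferative gene, had log2 ratios of 1.63 (0.86 to 2.30) in the control and 0.27 (-0.94 to 1.26) in the knockdown.

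Among death pathway targets, Bax, Bbc3 and Zmat3 lay above the remaining cells in both libraries. Bax, the pore-forming protein of the mitochondrial death pathway, stood at 719 and 784 CPM in class II-low selected cells against 409 and 439 CPM, log2 ratios of 0.81 (0.65 to 0.98) and 0.84 (0.71 to 0.96). In class II-high selected cells Bax stood at 312 and 335 CPM, against 333 and 397 CPM in the class II-high cells that were not selected, so no higher level was seen there, and the difference between the 2 kinds was not tested. Bbc3, which encodes the BH3-only protein PUMA, had 9 and 16 UMIs and log2 ratios of 1.47 (0.33 to 2.41) and 1.91 (1.09 to 2.62). Zmat3, a zinc finger RNA-binding protein, stood at 32.3 and 34.4 CPM against 1.92 and 1.98 CPM, with log2 ratios of 4.07 (3.15 to 4.89) and 4.12 (3.40 to 4.79), the steepest of the targets with at least 10 UMIs in both libraries. Its 14 and 22 UMIs came from 10 and 19 cells. With cells thinned to 5000 UMIs, Zmat3 was detected in 19.4% of class II-low selected control cells and 10.7% of knockdown ones, against 0.997% and 0.779% of remaining class II-low cells. Unthinned the shares were 29.4% and 25.3% against 3.20% and 1.98%, at median depths of 11418 and 8165 UMIs against 17339.5 and 10639.

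Ei24, an endoplasmic reticulum protein induced by DNA damage, had log2 ratios of 0.78 (0.31 to 1.21) and 0.93 (0.57 to 1.27) in class II-low cells, and the nuclease gene Aen 0.68 (0.11 to 1.20) and 0.67 (0.22 to 1.08). Not every death target was higher. Siva1 had 0.03 (-0.19 to 0.24) and -0.08 (-0.26 to 0.09), and Apaf1, the core of the apoptosome, 0.08 (-0.99 to 0.96) and 0.28 (-0.50 to 0.97). The death receptor Fas had 3 UMIs in the control and 13 in the knockdown, with -0.10 (-2.39 to 1.46) and 2.0 (1.08 to 2.80). Perp, a membrane protein, had 1 and 9 UMIs, so the control library gave too few molecules of Fas and Perp for a direction.

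Repair and metabolism targets were mixed. Dcxr, a carbonyl and xylulose reductase, stood at 64.7 and 68.9 CPM in class II-low selected cells against 15.6 and 13.7 CPM, log2 ratios of 2.05 (1.45 to 2.59) and 2.33 (1.85 to 2.76). Rps27l stood at 1955 and 1876 CPM against 1250 and 1305 CPM, with 0.65 (0.55 to 0.74) and 0.52 (0.44 to 0.61), and it is a close paralog of Rps27, so reads may be split between them. Ak1, an adenylate kinase, had 7 and 21 UMIs, at 16.2 and 32.9 CPM against 1.02 and 1.74 CPM. Polk, a translesion DNA polymerase, had 1.40 (-0.06 to 2.55) and 1.68 (0.60 to 2.58). Gpx1, a glutathione peroxidase and the most abundant gene of the list, had 0.02 (-0.06 to 0.10) and 0.08 (0.02 to 0.15). Xpc, which recognises DNA lesions for nucleotide excision repair, stood lower, at 53.1 and 45.4 CPM against 85.7 and 71.6 CPM, with -0.69 (-1.35 to -0.10) and -0.66 (-1.24 to -0.13).

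**Figure D3:**
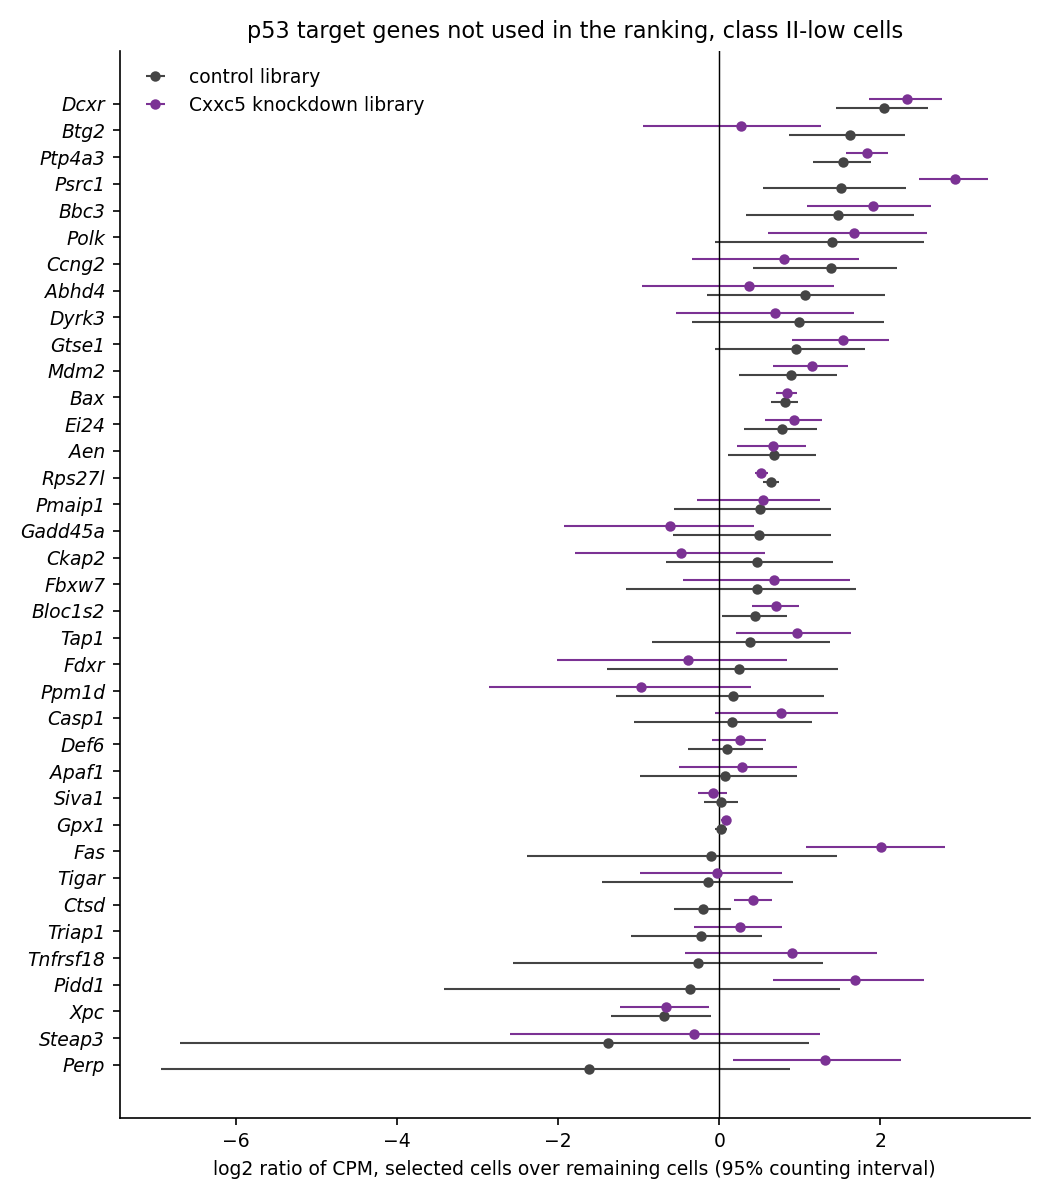
Log2 ratio of CPM in class II-low selected cells over class II-low remaining cells for the 37 p53 targets outside the ranking with at least 5 CPM over all kept cells, in the control (grey) and knockdown (purple) library, with 95% counting intervals. Dcxr, Ptp4a3, Psrc1 and Bbc3 lie right of 0 with their whole interval in both libraries, Xpc lies left of it, and Perp and Steap3 rest on 1 control UMI each.

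The 54 targets under the 20 CPM filter were also summed without choosing among them. They stood at 622 CPM in class II-low selected control cells and 775 CPM in knockdown ones, against 312 and 298 CPM in remaining class II-low cells, log2 ratios of 0.99 (0.81 to 1.17) and 1.38 (1.25 to 1.51). Per cell the sum ran from 0 to 1601 CPM with a median of 600 CPM in the control and from 0 to 3016 CPM with a median of 678 CPM in the knockdown, where remaining cells had medians of 296 and 278 CPM. The ranges overlapped widely. In class II-high cells the sums were 768 and 613 CPM in selected cells against 510 and 478 CPM in the others. Their log2 ratios were 0.59 (0.26 to 0.91) and 0.36 (-0.04 to 0.74), the knockdown interval including 0. All 68 measured targets summed together gave -0.21 (-0.35 to -0.08) and -0.07 (-0.21 to 0.06) in class II-high cells. That sum was thus not higher there, but abundant genes weigh most in it, so it does not describe each target. The arrest and feedback list alone gave 0.65 (0.12 to 1.15) in the control and 0.37 (-0.23 to 0.94) in the knockdown.

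The transcript of p53 itself was near the level of the remaining cells. Trp53 stood at 90.1 and 98.7 CPM in class II-low selected cells against 106 and 95.6 CPM, with log2 ratios of -0.24 (-0.73 to 0.22) and 0.05 (-0.34 to 0.40). Mdm4, a partner of Mdm2 in restraining p53, had 0.51 (-0.21 to 1.14) and 0.70 (0.17 to 1.18). None of the 6 abundant genes among the 17 measured p53 regulators was 1.5-fold higher or lower in both libraries, where 0.879% and 3.14% of all genes were, so the count does not set them apart from all genes.

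Genes of DNA replication were lower in the selected cells. The 30 S phase genes summed to 1655 CPM in all selected control cells and 1819 CPM in knockdown ones against 2635 and 2741 CPM, log2 ratios of -0.67 (-0.77 to -0.58) and -0.59 (-0.67 to -0.52). Of the 29 with at least 20 CPM, 28 lay lower in both libraries, where 56.6% of all genes did, and 8 at least 1.5-fold lower, where 6.06% of all genes were. In class II-low cells the ratios were -0.40 (-0.50 to -0.30) and -0.48 (-0.56 to -0.40), and 5 genes passed 1.5-fold, where 3.14% of all genes did. The helicase gene Mcm5 stood at 62.4 and 72.0 CPM against 109 and 111 CPM, and the sliding clamp gene Pcna, itself a reported p53 target, at 78.6 and 81.4 CPM against 110 and 104 CPM. Per cell, S phase sums in class II-low selected cells ran from 229 to 4528 CPM in the control and from 0 to 5312 CPM in the knockdown, so some selected cells held S phase transcripts at the level of the median remaining cell, 2634 and 2683 CPM, or above.

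The G2/M list was lower by less, with summed log2 ratios of -0.51 (-0.58 to -0.45) and -0.24 (-0.29 to -0.19) over all selected cells and -0.35 (-0.42 to -0.29) and -0.19 (-0.25 to -0.14) in class II-low cells. In the knockdown library this lay close to the shift of the median gene. The proliferation marker Mki67 had -0.01 (-0.40 to 0.36) and 0.10 (-0.21 to 0.40) in class II-low cells, and the topoisomerase gene Top2a -0.08 (-0.41 to 0.23) and 0.07 (-0.17 to 0.31). All 4 intervals included 0. The other cell cycle inhibitor Cdkn1b, which encodes p27, had 3 UMIs in each library and no readable direction.

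The 20 nucleolar genes of ribosome assembly had summed log2 ratios of -0.28 (-0.35 to -0.21) and -0.40 (-0.46 to -0.34) in class II-low cells, with nucleolin (Ncl) at 793 and 769 CPM against 1084 and 1221 CPM. All 16 of those with at least 20 CPM lay lower in both libraries over all selected cells, where 56.6% of all genes did, and 12 of 16 in class II-low cells, where 48.9% did. Cytosolic ribosomal protein genes went the other way by a small amount, with 0.18 (0.17 to 0.18) and 0.18 (0.17 to 0.18), and 76 of 80 higher in both libraries, where 16.9% of all genes were (73 of 80 over all selected cells, where 17.5% were). The amino acid and unfolded protein stress list had -0.26 (-0.35 to -0.16) and -0.49 (-0.57 to -0.41), and its members included Asns, asparagine synthetase, at 13.9 and 12.5 CPM against 34.9 and 40.0 CPM, and the chaperone Hspa5 at 397 and 391 CPM against 548 and 665 CPM.

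Several lists lay nearer 0 once the class II-high cells were left out. Immediate early genes had summed log2 ratios of 0.94 and 0.91 over all selected cells. In class II-low cells they had 0.23 (-0.002 to 0.46) and 0.38 (0.18 to 0.57), the control interval including 0. BCL2 family genes had 0.84 and 0.53 over all and 0.17 (-0.05 to 0.38) and 0.15 (-0.03 to 0.33) in class II-low cells. Within that family Bcl2a1b, a survival gene whose close copies Bcl2a1a and Bcl2a1d may share its reads, stood at 170 and 90.7 CPM against 37.3 and 19.2 CPM over all selected cells, and 77.1% and 55.1% of its selected-cell UMIs came from 5 cells. The interferon list had 0.80 and 0.73 over all and 0.14 (0.001 to 0.27) and 0.45 (0.35 to 0.55) in class II-low cells. There it consisted mostly of Ifitm3 at 839 and 1217 CPM against 793 and 875 CPM.

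**Figure D4:**
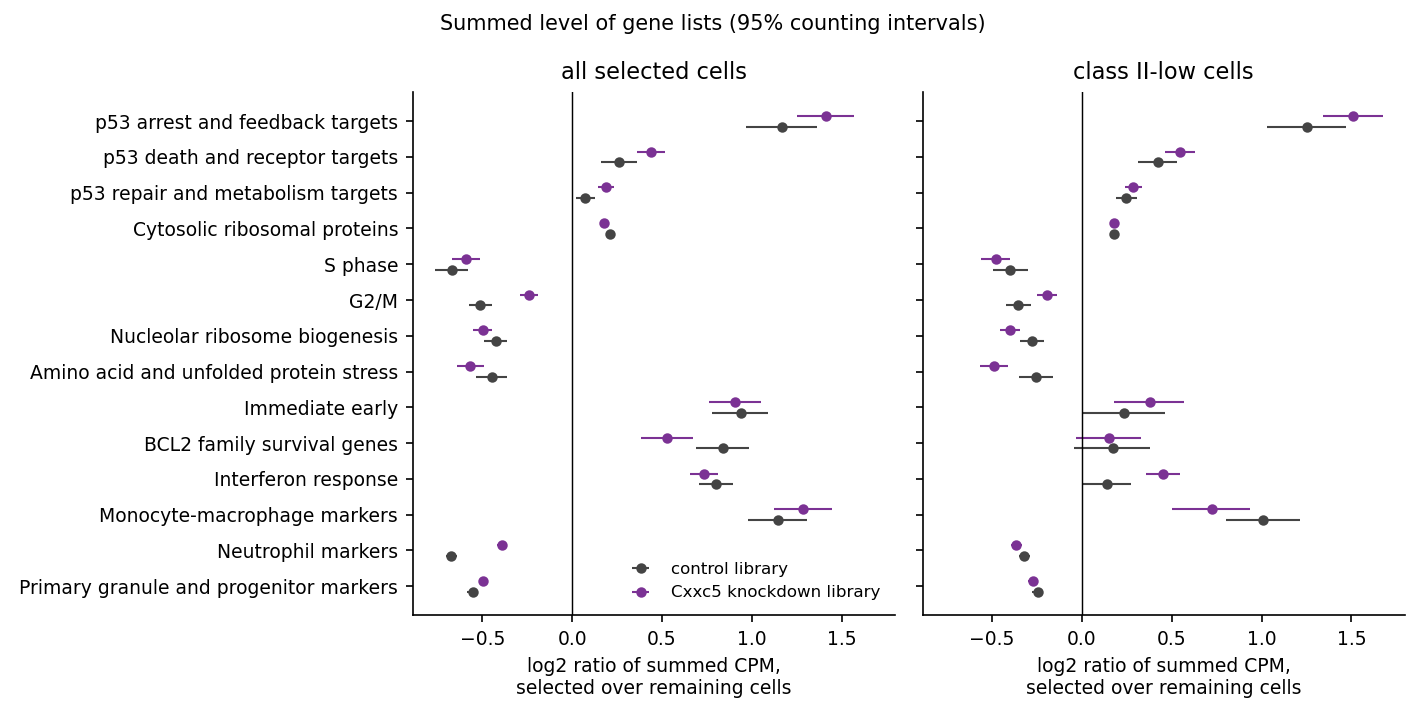
Log2 ratio of the summed CPM of each gene list in selected over remaining cells, for all selected cells (left) and class II-low cells (right), with 95% counting intervals. Immediate early, BCL2 family and interferon lists lie nearer 0 on the right, while the arrest list stays above 1 and the S phase list stays below 0 in both libraries.

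Markers of several lineages were found among the class II-low cells. Neutrophil markers, led by S100a8, summed per cell to a median of 1820 CPM in the control (138 to 306033) and 1727 CPM in the knockdown (0 to 155474), against 1761 and 1257 CPM in remaining class II-low cells. Their summed level lay lower, at 18782 and 13807 CPM against 23468 and 17790 CPM, log2 ratios of -0.32 (-0.35 to -0.29) and -0.37 (-0.40 to -0.34). Primary granule genes such as Elane stood at summed log2 ratios of -0.25 (-0.28 to -0.22) and -0.27 (-0.30 to -0.25), and Elane, neutrophil elastase, stood at 6772 and 6097 CPM against 7086 and 6821 CPM, with UMIs in 32 of 34 and 68 of 75 cells. Monocyte and macrophage markers had 1.01 (0.80 to 1.21) and 0.72 (0.50 to 0.93), at 462 and 282 CPM against 229 and 171 CPM. Lpl, lipoprotein lipase, stood at 104 and 70.5 CPM against 32.6 and 32.0 CPM. Ctss, cathepsin S, stood at 27.7 and 26.6 CPM against 11.3 and 9.16 CPM. Lpl and Ctss held only part of the rise of this list. The monocyte factor gene Irf8 was lower in the control and higher in the knockdown, at 48.5 and 56.4 CPM against 52.7 and 38.5 CPM. For Lpl, 93.3% and 82.2% of the UMIs came from 5 cells, so most selected cells lacked it. Mast cell and basophil markers were below the rest in the control, at 71.6 against 282 CPM, and not in the knockdown, at 340 against 260 CPM, where 1 cell reached 20968 CPM. Megakaryocyte markers were low in both, at 23.1 and 17.2 CPM against 44.8 and 36.9 CPM, with Pf4 at 5 UMIs in each library. The share of each lineage in the p53 target levels was not tested.

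Among class II-low cells, other genes with high ratios in both libraries were Mgmt, the methyltransferase that removes alkyl groups from guanine, at 34.7 and 73.6 CPM against 7.83 and 6.68 CPM, and Serpine2, a secreted protease inhibitor, at 41.6 and 64.2 CPM against 9.75 and 9.11 CPM. Myeloid genes were also among them. Lyz2, lysozyme of neutrophils and macrophages, stood at 922 and 1032 CPM against 481 and 284 CPM, Ccl6, a chemokine of myeloid cells, at 305 and 312 CPM against 138 and 81.7 CPM, and Vcan, versican, at 25.4 and 34.4 CPM against 4.89 and 2.94 CPM. S100a4, a calcium-binding protein, stood at 162 and 87.7 CPM against 68.3 and 26.3 CPM. Of the UMIs of these genes, between 34.0% (Mgmt in the knockdown) and 90.9% (Vcan in the control) came from 5 cells. The lowest included Slc19a1, the folate carrier, at 16.2 and 17.2 CPM (7 and 11 UMIs) against 39.1 and 41.4 CPM, log2 ratios of -1.27 (-2.59 to -0.23) and -1.27 (-2.27 to -0.42). Exo1, a nuclease of DNA repair and replication, had 5 and 8 UMIs and log2 ratios of -1.09 (-2.71 to 0.14) and -1.08 (-2.29 to -0.10).

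Correlations with the 3 summed genes were computed across all kept cells for genes with at least 20 CPM. Targets of lower level, such as Zmat3, were therefore not ranked. Among the ranked genes, Fth1, the heavy chain of the iron store ferritin, had the profile most like the 3 summed genes. Its Pearson correlation was 0.29 over 2912 control and 0.19 over 6004 knockdown cells. Cd74 followed with 0.22 and 0.18 and S100a10 with 0.23 and 0.18. The cells of a library share depth and scaling, the correlations are weak, and they are a description only. Fth1 stood at 5538 and 5270 CPM in all selected cells against 2572 and 2513 CPM, and at 3563 and 2988 CPM against 2438 and 2482 CPM in class II-low cells.

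The knockdown and control cells of the selection were last compared with each other, as 2 libraries. Of 2388 genes with at least 50 CPM, 113 (4.73%) were at least 1.5-fold higher and 64 (2.68%) lower in the selected knockdown cells, against 1 (0.0419%) and 12 (0.503%) in the remaining cells, which hold far more UMIs per gene. Without the class II-high cells the counts were 99 (4.15%) and 100 (4.19%). Of the p53 targets outside the ranking, 14 had at least 20 CPM. Their median log2 difference between the class II-low cells of the 2 libraries was 0.18. Single genes ran from -0.23 to 0.61, which is a range over genes and not an interval. Of these 14, 1 passed 1.5-fold, the cathepsin gene Ctsd at 159 and 243 CPM. Bax differed by 0.13 (-0.08 to 0.34), Dcxr by 0.09 (-0.63 to 0.83) and Zmat3 by 0.09 (-0.94 to 1.17). Among all 68 targets, 4 had an interval that left out 0. The share of all genes with such an interval was not computed, so this count does not set the targets apart. Psrc1 (12 and 50 UMIs), Ctsd (69 and 155) and Ddit4l (2 and 17) were higher in the knockdown, by 1.5 (0.57 to 2.54), 0.61 (0.19 to 1.04) and 2.53 (0.45 to 5.68), and Btg2 (18 and 8 UMIs) was lower, at -1.73 (-3.14 to -0.46). Among the ranking genes, whose level the selection sets in part, Phlda3 stood at 73.9 and 113 CPM and Cdkn1a at 504 and 493 CPM.

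Several of the largest differences between the selected cells of the 2 libraries rested on few cells or few molecules. Ngp, a neutrophil granule gene, stood at 424 (control) and 1373 CPM (knockdown), but 91.2% and 77.5% of its UMIs came from 5 cells. Camp, another granule gene, stood at 709 and 191 CPM, with 99.2% and 89.7% from 5 cells. Rae1, a nuclear export factor, and Hars, histidyl tRNA synthetase, each had 11 control UMIs, at 19.5 CPM, against 60.5 and 52.6 CPM in the knockdown. Myl10, a myosin light chain, stood at 294 and 131 CPM, with a log2 difference of -1.16 (-1.54 to -0.80) that was like the -1.13 (-1.17 to -1.09) of the remaining cells. Vim, vimentin, stood at 913 and 389 CPM over all selected cells (515 and 296 UMIs) and at 407 and 341 CPM in class II-low cells, where the log2 difference was -0.25 (-0.55 to 0.04).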

How the data were processed

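Per the submitters' processing notes, the authors made the deposited UMI counts per gene and cell with Cell Ranger 2.1.1 against mm10, from 10x Genomics 3' libraries per the labels' protocols. Their annotation is not given in the sources used here. Genes were located by identifier in GENCODE M21.

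Python 3.11.15 with numpy 2.4.6, scipy 1.17.1 and pandas 2.3.3 was used. Filters removed 13 control and 11 knockdown barcodes, all for mitochondrial share. Doublets were kept and free RNA was not corrected. Levels are UMI sums over cells, per 1000000 of all UMIs (CPM). Log2 ratios carry exact 95% intervals from the binomial split of the UMIs, levels exact Poisson and shares exact Clopper-Pearson intervals. They treat UMIs as independent and are too narrow where few cells hold most of them. Each group was 1 pooled library, so cells are not replicates, fold thresholds stand in place of tests, and results compare libraries, not conditions.

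The selected cells, gene lists and rules were chosen with earlier results of these data known. Named genes were the 12 highest and 12 lowest ratios (at least 20 CPM). The 8 highest of lower level with at least 10 UMIs in each library were added. Up to 6 of each of 24 lists and the 6 highest and 6 lowest between libraries were also named. The 3 most correlated genes were taken among those with at least 20 CPM. The class II split, the genes named for class II-low cells, the level classes of the p53 targets and the targets named under 20 CPM were chosen after values were seen. Of 386 list entries, 384 were measured. Alternatives covered the size of the selection, thinning, depth matching, filters, fold, scaling and the ranking genes.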

Additional observations from a re-analysis of the deposited data

How the results depend on the processing

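Across 17 results and 18 settings, 150 of 208 alternative values stayed within the 95% interval of the reported value (counts of genes: within 1.5 times), 58 did not, and no called log2 ratio changed sign. Which of the higher and lower genes were more numerous did change with scaling, with 2-fold and without a filter. The 72 higher genes became 172 when scaled to the median gene, 29 at a 50 CPM filter, 1078 without a filter, 22 at 2-fold, 18 when ranked without Cdkn1a and 40 without class II-high cells. The 276 lower genes became 85 for the top 3%, 134 against remaining cells of matched depth (the interquartile range of the selected cells), 82 when scaled, 131 at 50 CPM, 591 without a filter, 18 at 2-fold, 60 without Cdkn1a and 143 without class II-high cells. The 177 genes apart between libraries became 325 for the top 1%, 95 for the top 3%, 505 after thinning and 732 at 20 CPM.

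For S phase, the control value moved to -0.53 (top 1%), -0.50 (top 3%), -0.42 (thinned), -0.56 (5 highest cells left out), -0.45 (scaled), -0.32 (ranked without Cdkn1a) and -0.40 (without class II-high cells). The knockdown value moved to -0.35 (top 3%), -0.43 (thinned), -0.40 (scaled), -0.42, -0.51 and -0.45 (ranked without Cdkn1a, Phlda3 or Ccng1) and -0.48 (without class II-high cells). For G2/M, the control value moved to -0.39 (top 3%), -0.29 (thinned), -0.35 (matched depth), -0.42 (deepest 5% left out), -0.29 (scaled), -0.12 and -0.43 (ranked without Cdkn1a or Phlda3) and -0.35 (without class II-high cells). The knockdown value moved to -0.37 (top 1%), -0.11 (matched depth), -0.045 (scaled) and -0.40 (ranked without Ccng1).

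For left-out Cdkn1a, the control value moved to 3.21 (top 1%), 1.72 (thinned), 2.32 (matched depth) and 2.47 (mean of cell CPM), and the knockdown value to 2.87 (top 3%), 2.26 (thinned), 3.12 (matched depth) and 3.04 (mean of cell CPM). In the control, Phlda3 moved to 3.87 (thinned) and Ccng1 to 1.45 (thinned) and 2.16 (without class II-high cells). Without a filter the p53 target medians were 0.75 and 1.06. With at least 5 UMIs of the ranking genes required, the knockdown cells had a median of 9069 UMIs. The cause of each shift was not tested. The class II alternative was chosen after seeing the data.

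No paired analysis was possible because each group had 1 library without a replicate number, and for the same reason no library was left out. Pooled samples, infection and culture cannot be told apart from the hairpin. Some genes with under 10 control UMIs, such as Polk, Fas and Perp, had control intervals that included 0.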
